A study of Homo sapiens with 6 samples.

Results

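Transcripts of 4 metallothioneins were higher in every panobinostat library than in any vehicle library of cells labelled HT1197. Such a separation was seen in 35.5% of all genes tested. The transcript of MTF1, the zinc-sensing regulator of metallothioneins, did not pass the test. The gene set described here has 10 members, chosen by symbol: the metallothioneins MT1E, MT1F, MT1G, MT1M, MT1X, MT2A and MT3, the transcription factor MTF1, the zinc exporter SLC30A1 and the zinc importer SLC39A10. Of these 10 members, 8 had a row among the 22718 genes of the deposited tables, and 7 of the 8 were abundant enough to be tested among 16084 genes. MT1G and MT3 were not analysed here.

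HT1197 is an established human bladder carcinoma line. By the labels, dishes of it received panobinostat, an inhibitor of histone deacetylases, or vehicle (1% DMSO), and RNA was taken 48 h later. The labels give no DMSO content for the panobinostat arm. The labelled dose was 2 times the line's IC50 (the concentration defined by its inhibition of that line). Each arm had 3 libraries, lettered A to C, and the labels name no genetic change in either arm. The labels do not tie a library to a dish, so p-values measure the spread between these libraries, which may be technical. As in any bulk RNA sample, fewer cells of a kind and less RNA per cell cannot be told apart.

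Total counts were 13417898 to 18186087 in the panobinostat libraries and 14287080 to 18095984 in the vehicle libraries. A level of 3 counts stood for 0.161 to 0.214 CPM in panobinostat libraries and 0.173 to 0.216 CPM in vehicle libraries, where CPM is a count scaled to the library. The markers of the labelled tissue were largely absent: 9 of 16 urothelial markers had a row, 0 of them reached 10 FPKM in the vehicle mean, and UPK1B, FOXA1 and TP63 had 0 vehicle counts. Their summed level was 3.75 to 3.93 FPKM in panobinostat libraries and 2.13 to 2.50 FPKM in vehicle libraries. In contrast, 11 of 12 markers of adrenergic neuroblasts reached 10 FPKM in the vehicle mean, summing to 1473 to 1567 FPKM in panobinostat libraries and 1802 to 2067 FPKM in vehicle libraries. The libraries therefore go against their label and are called here the libraries labelled HT1197.

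Metallothioneins are small cysteine-rich proteins that bind zinc and copper and buffer both metals in the cell. When free zinc rises, MTF1 binds short metal response elements in the promoters of metallothionein genes and of SLC30A1 and raises their transcription. Zinc exporters of the SLC30 family move zinc out of the cytosol, and importers of the SLC39 family move it in. Metallothioneins have been studied in bladder and other carcinomas because they also bind cadmium and platinum drugs.

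The coding sequences of the 4 tested metallothioneins are shown because the copies are alike. A short read that falls within a shared stretch may not tell them apart. They come from the principal transcripts of GENCODE 29 (GRCh38), all on the plus strand of chromosome 16. MT2A is in lower case throughout, and capitals in the others mark the bases that differ from MT2A.
MT2A: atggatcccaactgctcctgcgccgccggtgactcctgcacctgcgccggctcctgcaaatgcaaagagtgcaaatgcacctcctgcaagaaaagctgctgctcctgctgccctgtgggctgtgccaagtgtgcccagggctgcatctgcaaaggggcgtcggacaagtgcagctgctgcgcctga
MT1E: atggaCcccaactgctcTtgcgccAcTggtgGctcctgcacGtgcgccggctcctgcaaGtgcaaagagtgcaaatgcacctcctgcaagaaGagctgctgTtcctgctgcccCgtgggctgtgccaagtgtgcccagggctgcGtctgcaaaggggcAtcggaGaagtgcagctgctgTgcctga
MT1F: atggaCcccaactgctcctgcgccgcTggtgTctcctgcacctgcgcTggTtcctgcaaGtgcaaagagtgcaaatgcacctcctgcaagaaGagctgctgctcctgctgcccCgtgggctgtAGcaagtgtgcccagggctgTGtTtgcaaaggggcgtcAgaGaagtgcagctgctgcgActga
MT1X: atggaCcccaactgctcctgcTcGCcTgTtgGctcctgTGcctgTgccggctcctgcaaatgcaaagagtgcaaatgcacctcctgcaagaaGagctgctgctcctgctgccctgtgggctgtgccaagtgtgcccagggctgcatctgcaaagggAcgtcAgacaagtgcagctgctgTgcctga
Each has 186 coding bases and 61 codons before the stop, of which 20 encode cysteine. MT1E and MT1X each differ from MT2A at 14 bases (92.5% identity), and MT1F differs at 16 bases (91.4% identity). The longest stretch shared without a difference is 63 bases between MT1X and MT2A, and 32 bases between MT2A and either of the others. MT1M, which was too scarce to test, differs from MT2A at 19 bases.

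The promoters shown are those of the members with a RefSeq window that holds more than 1 match to a metal response element core. The windows run from 250 bases before to 50 bases after the start site (RefSeq, GRCh38.p14), and 5 of the 10 members had one. The letters searched were TGCACNC and TGCGCNC on both strands, and capitals mark the matches, which do not overlap one another. The MT2A window is chr16:56608334-56608633 (plus strand), the MT1X window chr16:56682220-56682519 (plus strand) and the SLC30A1 window chr1:211579112-211579411 (minus strand).
MT2A: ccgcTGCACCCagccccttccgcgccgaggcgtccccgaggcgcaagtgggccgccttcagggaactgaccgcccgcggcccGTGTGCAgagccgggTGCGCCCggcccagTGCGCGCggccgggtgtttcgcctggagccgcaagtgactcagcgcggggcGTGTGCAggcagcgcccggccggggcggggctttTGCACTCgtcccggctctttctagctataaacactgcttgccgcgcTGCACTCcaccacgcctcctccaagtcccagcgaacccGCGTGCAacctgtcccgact
MT1X: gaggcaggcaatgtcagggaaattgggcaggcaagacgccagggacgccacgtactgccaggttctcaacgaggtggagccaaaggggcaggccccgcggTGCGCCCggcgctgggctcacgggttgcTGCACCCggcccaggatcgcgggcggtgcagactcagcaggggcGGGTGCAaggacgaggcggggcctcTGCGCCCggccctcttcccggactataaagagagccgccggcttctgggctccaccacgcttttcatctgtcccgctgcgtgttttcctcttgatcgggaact
SLC30A1: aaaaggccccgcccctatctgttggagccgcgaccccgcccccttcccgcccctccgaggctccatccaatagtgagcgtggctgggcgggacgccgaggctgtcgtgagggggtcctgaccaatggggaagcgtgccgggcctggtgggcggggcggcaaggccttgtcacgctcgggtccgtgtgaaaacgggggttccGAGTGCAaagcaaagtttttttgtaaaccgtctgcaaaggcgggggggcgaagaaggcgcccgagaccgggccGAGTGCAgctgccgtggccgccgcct
The MT2A window held 8 matches, 6 to TGCACNC and 2 to TGCGCNC, and the MT1X window held 4 matches, 2 to each motif. The SLC30A1 window held 2 matches to TGCACNC, the SLC39A10 windows held 0 and 1, and the MTF1 window held 0. Of 35116 windows of the same length, TGCACNC was found in 12.1% and TGCGCNC in 20.0%. Windows with 2 or more matches to either were 8.60% of all, those with 4 or more were 0.601% and those with 8 or more were 0.0199%. These windows are GC-rich (72.0% in MT2A, 67.0% in MT1X and 68.0% in SLC30A1), and a match is a description of letters, not a binding site.

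Of the 7 members tested, 6 rose, 0 fell and 1, MTF1, did not pass an adjusted p of 0.05 (edgeR's quasi-likelihood test, Benjamini-Hochberg over all 16084 genes). Across all genes tested, 33.7% rose and 31.5% fell, so a rise on its own was common. Of these calls 51.7% were rises, and 63.2% with upper quartile scaling. The share that rose depended on abundance. At a mean of 1 to under 10 CPM, where MT1F lies, 43.9% rose and 16.7% fell. At 10 to under 100 CPM, where MT2A, MT1E, MT1X, MTF1 and SLC30A1 lie, 28.5% rose and 40.5% fell, and at 100 CPM or more, where SLC39A10 lies, 22.7% rose and 48.1% fell. These means are over all 6 libraries, panobinostat included. The vehicle means of MT2A, MT1E, MT1X and MT1F were 3.28, 5.11, 7.65 and 0.494 CPM, so only their own rises placed them in the ranges named. Rises of 2-fold or more made up 16.8% of all genes tested and falls of that size 5.27%, and MT2A, MT1F, MT1E and MT1X were each past that size. In 6 of the 7 members every panobinostat library lay above every vehicle library, as it did for 35.5% of all genes tested, while 33.4% had every panobinostat library below. MT1F passed the abundance filter only through the panobinostat libraries, so its call could hardly have gone the other way.

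Some markers of other cell types also differed between the arms. Fibroblast markers summed to 79.2 to 85.3 FPKM in panobinostat libraries and 35.6 to 37.4 FPKM in vehicle libraries, with 7 of 8 having a row and 5 rising and 1 falling of 6 tested. Most of that difference was LUM, which averaged 42.4 FPKM after panobinostat and 0.654 FPKM after vehicle. PDGFRA, which held most of the vehicle sum, was the marker that fell, at 28.4 FPKM after panobinostat and 30.5 FPKM after vehicle. Endothelial markers summed to 0.626 to 0.733 FPKM in panobinostat libraries and 0.182 to 0.200 FPKM in vehicle libraries, with 5 of 8 having a row and 2 rising and 0 falling of 3 tested. Leukocyte markers summed to 0.337 to 0.699 FPKM in panobinostat libraries and 0.570 to 1.09 FPKM in vehicle libraries, with 3 of 8 having a row. Those sums overlapped between the arms, and of the 3 markers tested PTPRC and CSF1R rose and LYZ, which held most of the vehicle sum, fell. DCN, CDH5, KDR, PTPRC and CSF1R passed the abundance filter only through the panobinostat libraries, so their calls could hardly have gone the other way. Over all genes tested 33.7% rose and 31.5% fell. None of the markers of these 3 lists that had a row was at 0 over the whole vehicle arm. The part of other cells in the metallothionein rises was not tested.

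**Figure D1:**
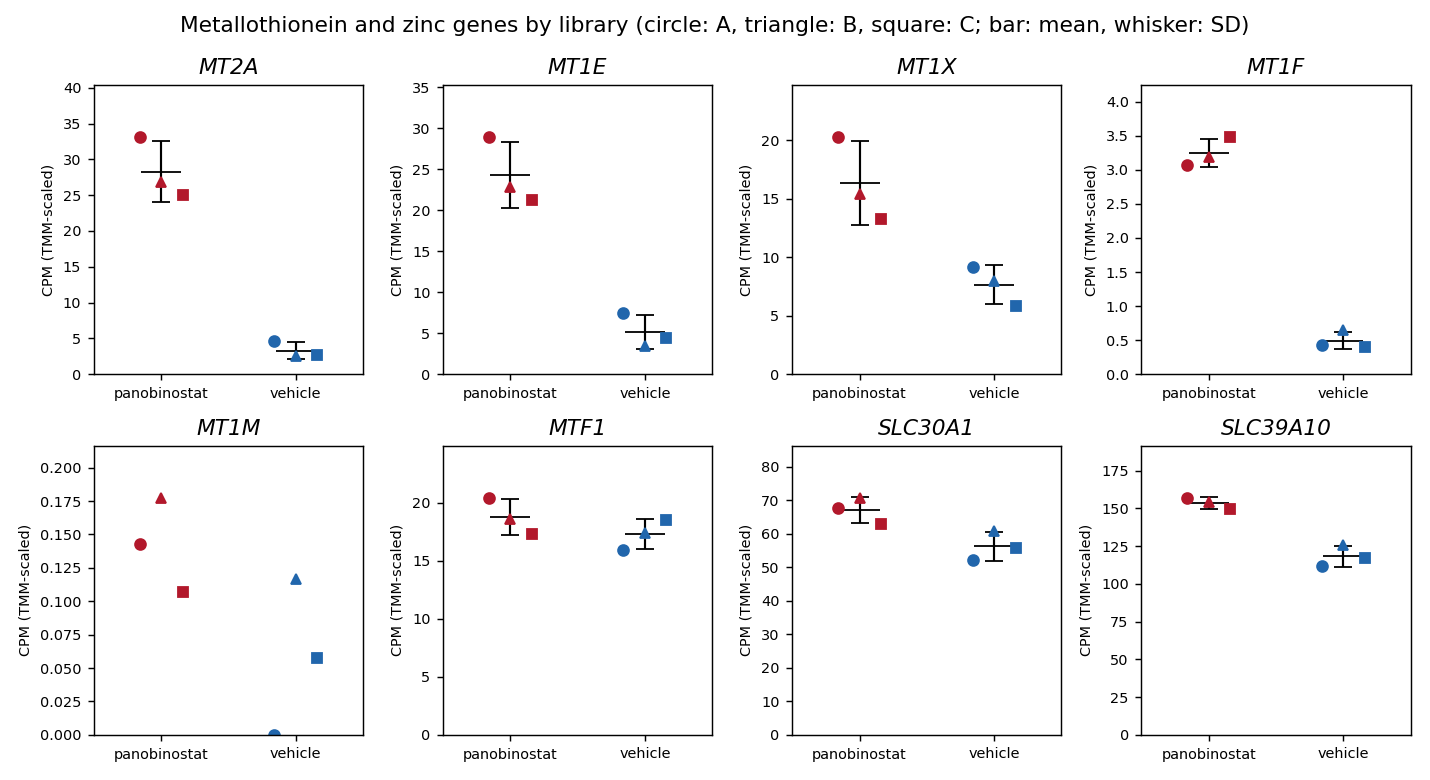
CPM of the 8 members with a row in each library, panobinostat at left and vehicle at right in each panel (circle A, triangle B, square C; bar, mean; whisker, SD; n = 3 libraries an arm). The arms stand apart for MT2A (25.0 to 33.1 against 2.57 to 4.62 CPM), MT1E, MT1X, MT1F, SLC30A1 and SLC39A10, and overlap for MTF1 and for MT1M, which is drawn without mean or whisker.

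MT2A (ENSG00000125148, chr16:56608199-56609497), the main metallothionein of most human tissues, had 33.1, 26.8 and 25.0 CPM in panobinostat libraries A, B and C, against 4.62, 2.57 and 2.66 CPM in vehicle libraries A, B and C. Every panobinostat library was above every vehicle library, and library A was the highest of its arm in both arms. MT2A averaged 28.3 ± 4.28 CPM after panobinostat and 3.28 ± 1.16 CPM after vehicle (SD, n = 3 each). It rose by 3.13 ± 0.18 on the log2 scale (SE), which is 8.75-fold with a 95% interval of 6.68 to 11.5, at an adjusted p of 2.18e-09. Its rise ranked 718th of 5416, and 4.46% of all genes tested had a larger log2 fold change.

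MT1E (ENSG00000169715, chr16:56625475-56627112) is a copy of the MT1 group that lies beyond MT2A along the cluster. It had 28.9, 22.8 and 21.2 CPM in panobinostat libraries A, B and C, against 7.43, 3.45 and 4.45 CPM in vehicle libraries A, B and C. The arms did not overlap, although vehicle A was more than its counting error above vehicle B, with exact Poisson intervals of 6.06 to 9.01 and 2.63 to 4.45 CPM that cover counting error only. The mean was 24.3 ± 4.07 CPM after panobinostat and 5.11 ± 2.07 CPM after vehicle (SD, n = 3 each). MT1E rose by 2.27 ± 0.20 (log2, SE), or 4.82-fold, at an adjusted p of 1.73e-07.

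MT1F (ENSG00000198417, chr16:56657694-56660698) was the scarcest copy tested. It had 43, 54 and 65 counts in panobinostat libraries A, B and C, against 6, 11 and 7 counts in vehicle libraries A, B and C. That is 3.07, 3.19 and 3.48 CPM after panobinostat and 0.433, 0.644 and 0.404 CPM after vehicle, with no overlap of the arms and without library A on top. MT1F averaged 3.25 ± 0.212 CPM after panobinostat and 0.494 ± 0.131 CPM after vehicle (SD, n = 3 each). It rose by 2.69 ± 0.28 (log2, SE), or 6.47-fold, at an adjusted p of 7.30e-07. MT1F passed the abundance filter only through the panobinostat libraries, so this call could hardly have gone the other way. With limma on log2(FPKM + 1) the same difference was 1.16, a scale that understates the change of low genes.

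MT1X (ENSG00000187193, chr16:56682424-56684196) lies at the far end of the cluster and was the most abundant copy by counts in every vehicle library. It had 20.3, 15.4 and 13.3 CPM in panobinostat libraries A, B and C, against 9.16, 7.96 and 5.83 CPM in vehicle libraries A, B and C. The arms did not overlap, with 13.3 CPM in panobinostat C next to 9.16 CPM in vehicle A. The mean was 16.3 ± 3.58 CPM after panobinostat and 7.65 ± 1.68 CPM after vehicle (SD, n = 3 each). MT1X rose by 1.09 ± 0.18 (log2, SE), or 2.13-fold with a 95% interval of 1.64 to 2.77, at an adjusted p of 6.83e-05. That interval and the one for MT1E, 3.58 to 6.51, do not overlap.

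MT1M (ENSG00000205364, chr16:56632233-56633986) was near the limit of detection. It had 2, 3 and 2 counts in panobinostat libraries and 0, 2 and 1 counts in vehicle libraries, at or under 3 counts in each, so no fold is given. A count of 0 in vehicle A is read as up to 0.216 CPM, the level of 3 counts, and its exact Poisson upper limit was 0.266 CPM. Among the other copies, the pseudogene MT1L had 3, 2 and 11 counts in panobinostat libraries A, B and C, against 1, 0 and 0 counts in vehicle libraries A, B and C, so panobinostat C held most of its counts. The pseudogene MT1XP1 had 8 counts over the panobinostat arm and 6 over the vehicle arm. Neither was tested. In all, 7 of 21 listed metallothionein genes and pseudogenes had a row and 4 were tested, all of them members.

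Because reads may be split among copies, the copies were also summed. The 7 copies with a row held 85.8, 68.7 and 63.9 CPM in panobinostat libraries A, B and C, against 21.9, 14.9 and 13.5 CPM in vehicle libraries A, B and C. The arms stood well apart, and library A was again the highest of each arm. The summed level averaged 72.8 ± 11.5 CPM after panobinostat and 16.7 ± 4.49 CPM after vehicle (SD, n = 3 each), which is 4.35-fold, or 2.12 on the log2 scale. Without MT2A the log2 difference was 1.72. No p is given for this sum, since its genes were chosen with results known.

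The mix of copies, as shares of their counts, is given as a description. MT2A held 38.9 ± 0.265% of all metallothionein counts after panobinostat and 19.4 ± 1.96% after vehicle (SD, n = 3 each). MT1X held 22.3 ± 1.42% after panobinostat and 46.2 ± 6.22% after vehicle. MT1E held 33.4 ± 0.292% after panobinostat and 30.1 ± 6.01% after vehicle, and its vehicle share ran from 23.1% in library B to 34.0% in library A. Thus the MT2A and MT1X shares did not overlap between arms, and those of MT1E did.

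**Figure D2:**
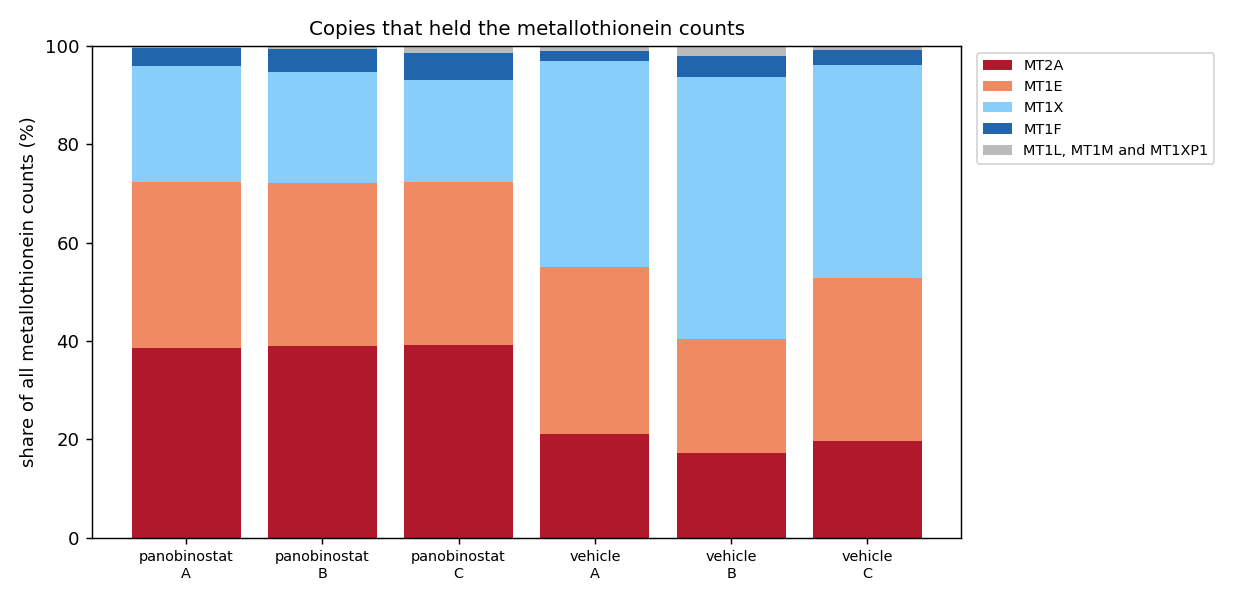
Share of all metallothionein counts (%) held by each copy in each library, panobinostat libraries at left and vehicle libraries at right. MT2A fills 38.6 to 39.1% of the panobinostat bars and 17.3 to 21.1% of the vehicle bars, and MT1X fills 20.8 to 23.6% of the panobinostat bars and 41.9 to 53.3% of the vehicle bars.

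The ratio of MT2A to MT1X counts was 1.63, 1.74 and 1.88 in panobinostat libraries A, B and C, against 0.504, 0.324 and 0.455 in vehicle libraries A, B and C. The arms did not overlap, and the difference was 2.06 on the log2 scale. An exact two-sided permutation test gave p = 0.1, the smallest p that 3 against 3 libraries allow, and 0.15 after adjustment over the 6 ratios of tested copies. No ratio could therefore pass at this number of libraries, and the others are not read further.

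Sharing of sequence with other annotated genes was greatest for MT1X. Of all 50-base stretches in its principal transcript, 45.1% also occur in another GENCODE gene, against 4.88% in MT2A, 5.34% in MT1E, 3.59% in MT1F and 7.05% in MT1M. For MT1X, 29.2% of the stretches occur in AC026461.1, 11.7% in MT1G, 9.48% in MT1XP1 and 3.49% in MT2A, some of them in several genes. For 75-base stretches the share was 31.6% in MT1X, 0.794% in MT1E, 0.132% in MT1M and 0 in MT1F and MT2A. None of it was with another tested copy. For 100-base stretches the share was 19.1% in MT1X, all of it with AC026461.1, and 0 in the other copies. AC026461.1 is a processed transcript at chr16:56682470-56687807 on the same strand as MT1X, which it overlaps. Stretches shared with it may thus be the same bases of the chromosome, not a second copy. AC026461.1 has no row in the counts used here, and no source used here states the read length. The part of shared reads in the MT1X values was therefore not tested.

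MTF1 (ENSG00000188786, chr1:37809567-37859620), the zinc-sensing transcription factor, had 20.4, 18.6 and 17.3 CPM in panobinostat libraries A, B and C, against 15.9, 17.4 and 18.5 CPM in vehicle libraries A, B and C. The arms overlapped. MTF1 averaged 18.8 ± 1.56 CPM after panobinostat and 17.3 ± 1.30 CPM after vehicle (SD, n = 3 each). Its log2 fold change was 0.11 ± 0.11 (SE), with a 95% interval of -0.11 to 0.34 and an adjusted p of 0.367. That interval allows changes of 0.924-fold to 1.26-fold, so a transcript change as large as that of MT1X lies outside it.

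SLC30A1 (ENSG00000170385, chr1:211571568-211578742), the exporter of zinc across the plasma membrane, had 67.8, 70.7 and 62.9 CPM in panobinostat libraries A, B and C, against 52.1, 60.8 and 55.7 CPM in vehicle libraries A, B and C. The arms did not overlap, with 62.9 CPM in panobinostat C next to 60.8 CPM in vehicle B. It averaged 67.2 ± 3.94 CPM after panobinostat and 56.2 ± 4.40 CPM after vehicle (SD, n = 3 each). SLC30A1 rose by 0.25 ± 0.08 (log2, SE), or 1.19-fold, at an adjusted p of 0.0138. This call was lost without panobinostat B (0.22, adjusted p = 0.0752) or vehicle C (0.24, adjusted p = 0.0565).

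SLC39A10 (ENSG00000196950, chr2:195575977-195737702), an importer of zinc at the plasma membrane, had 157, 154 and 149 CPM in panobinostat libraries A, B and C, against 112, 126 and 117 CPM in vehicle libraries A, B and C. The lowest panobinostat library was above the highest vehicle library. It averaged 154 ± 3.83 CPM after panobinostat and 118 ± 7.12 CPM after vehicle (SD, n = 3 each). SLC39A10 rose by 0.38 ± 0.07 (log2, SE), or 1.30-fold, at an adjusted p of 0.000280. The importer and the exporter therefore both rose, by less than any tested metallothionein.

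**Figure D3:**
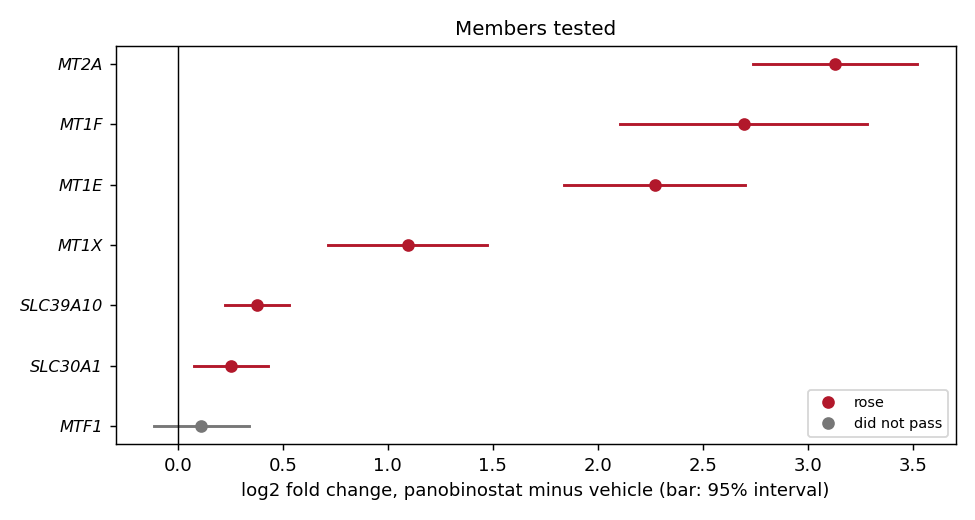
Log2 fold change of the 7 tested members, panobinostat minus vehicle (point, estimate; bar, 95% interval; red, rose; grey, did not pass). MT2A stands highest at 3.13, MT1X is at 1.09, SLC39A10 and SLC30A1 are at 0.38 and 0.25, and the interval of MTF1 spans 0.

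Levels between genes can be compared only per length, on the authors' FPKM scale. After panobinostat the order was MT1E (24.0 ± 4.18 FPKM), SLC39A10 (23.1 ± 0.788), MT2A (22.6 ± 3.58), SLC30A1 (12.7 ± 0.856), MT1X (9.57 ± 2.16), MTF1 (2.43 ± 0.222), MT1F (1.78 ± 0.0994) and MT1M (0.157 ± 0.0399; SD, n = 3 libraries each). The libraries of MT1E, SLC39A10 and MT2A overlapped, as did those of SLC30A1 and MT1X. After vehicle the order was SLC39A10 (16.4 ± 0.870 FPKM), SLC30A1 (9.86 ± 0.701), MT1E (4.68 ± 1.94), MT1X (4.15 ± 0.940), MT2A (2.43 ± 0.880), MTF1 (2.07 ± 0.141), MT1F (0.251 ± 0.0652) and MT1M (0.0591 ± 0.0593). There the libraries of MT1E overlapped those of MT1X, MT1X those of MT2A, and MT2A those of MTF1, while MTF1 and MT1F did not overlap. The lengths behind these values, 1299 bases for MT2A, 1773 for MT1X and 1889 for MT1F, exceed their principal transcripts of 786, 450 and 690 bases, so the FPKM of the copies depends on the gene model.

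Of 10 SLC30 genes listed, 9 had a row, 8 were tested, 7 rose, 0 fell and 1 did not pass, with a median log2 fold change of 0.28. Over all genes tested 33.7% rose and 31.5% fell, with a median of 0.01. The 7 include SLC30A1 and SLC30A3, and 5 rose without panobinostat B, without vehicle C or at an adjusted p of 0.01. SLC30A3, which loads zinc into synaptic vesicles, had 3.64, 4.50 and 3.80 CPM in panobinostat libraries A, B and C, against 0.216, 0.293 and 0 CPM in vehicle libraries A, B and C. It rose by 4.52 ± 0.42 (log2, SE, adjusted p = 2.47e-07), but its vehicle libraries were near or under 3 counts' worth and it passed the filter only through the panobinostat libraries. The estimate was 5.25 without vehicle B, 3.90 without vehicle C and 0.72 with limma on log2(FPKM + 1).

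SLC30A4, an exporter of intracellular vesicles, averaged 6.89 ± 0.958 CPM after panobinostat and 1.12 ± 0.343 CPM after vehicle and rose by 2.61 ± 0.23 (log2, SE, adjusted p = 1.74e-07). SLC30A10, known mainly as a manganese exporter, averaged 2.82 ± 0.337 CPM after panobinostat and 1.55 ± 0.232 CPM after vehicle and rose by 0.85 ± 0.23 (adjusted p = 0.00428). SLC30A5, which brings zinc into the secretory pathway, rose by 0.29 ± 0.09 (adjusted p = 0.00830). With limma on FPKM at a mean of 1 FPKM or more, 4 SLC30 genes rose, since scarce genes such as SLC30A3 were left out there.

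The importers were mixed. Of 14 SLC39 genes listed, 13 had a row, 11 were tested, 5 rose, 1 fell and 5 did not pass, with a median log2 fold change of 0.03, against 33.7% rising and 31.5% falling over all genes tested. SLC39A11, a broad zinc transporter, had 104, 120 and 123 CPM in panobinostat libraries A, B and C, against 52.1, 54.6 and 57.9 CPM in vehicle libraries A, B and C. It rose by 1.07 ± 0.08 (log2, SE, adjusted p = 3.87e-08), with no overlap of the arms. SLC39A8, which carries zinc and manganese, rose by 0.51 ± 0.11 (adjusted p = 0.000638), at 33.5 ± 3.92 CPM after panobinostat and 23.5 ± 2.37 CPM after vehicle. SLC39A14, which carries zinc, iron and manganese, was the 1 importer that fell, by 0.50 ± 0.08 (adjusted p = 3.79e-05), at 154 ± 8.98 CPM after panobinostat and 218 ± 14.5 CPM after vehicle. Without vehicle B or vehicle C 3 importers rose, and without vehicle A 2 fell.

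**Figure D4:**
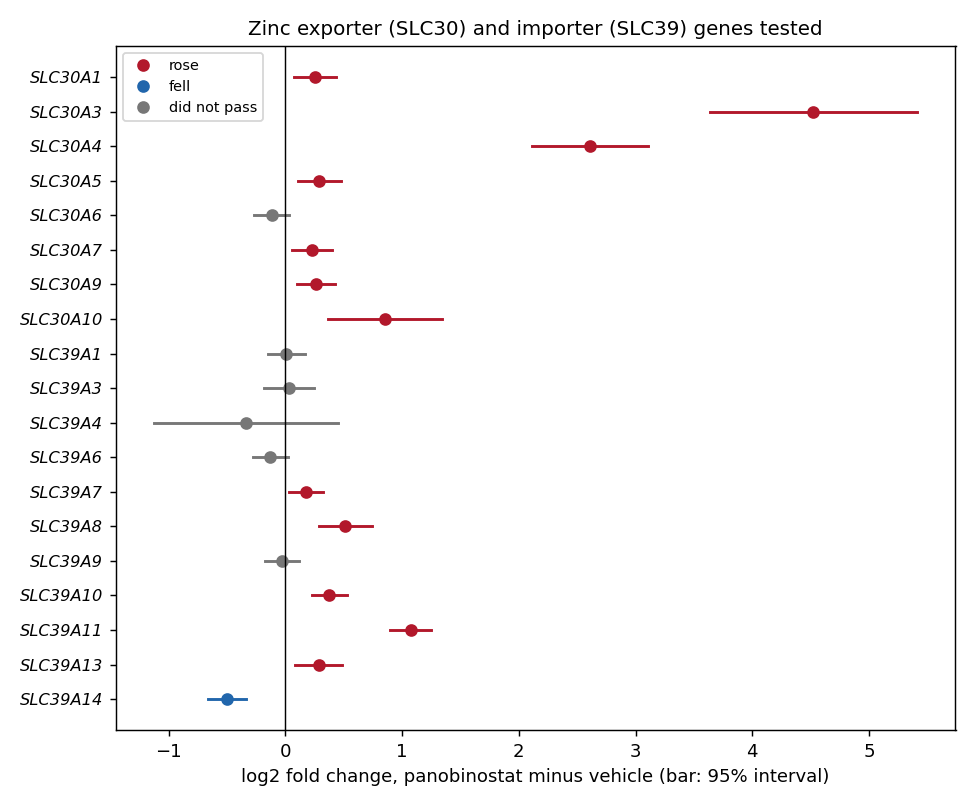
Log2 fold change of the tested SLC30 exporters and SLC39 importers, panobinostat minus vehicle (point, estimate; bar, 95% interval; red, rose; blue, fell; grey, did not pass). SLC30A3 (4.52) and SLC30A4 (2.61) stand far to the right, most others lie within 1 of 0, and SLC39A14 (-0.50) lies to the left of 0.

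Metallothioneins also bind copper, and of 12 copper-handling genes, all tested, 4 rose, 4 fell and 4 did not pass (median log2 fold change 0.10). These shares were near the 33.7% that rose and 31.5% that fell over all genes tested. ATP7B, the copper-exporting ATPase, had 21.8 ± 1.52 CPM after panobinostat and 7.76 ± 0.813 CPM after vehicle and rose by 1.48 ± 0.12 (log2, SE, adjusted p = 5.02e-08). ATOX1, the chaperone that hands copper to it, rose by 0.64 ± 0.09 (adjusted p = 2.70e-05). SCO2, a copper chaperone of cytochrome c oxidase, fell by 0.80 ± 0.14 (adjusted p = 0.000179). SLC31A2, a low-affinity copper transporter, rose by 0.60 ± 0.22 (adjusted p = 0.0283), but its arms overlapped and the call was lost without panobinostat B (adjusted p = 0.213), vehicle B (0.0846) or vehicle C (0.0760).

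Among 6 other genes linked to MTF1, mostly in mouse, 2 rose, 2 fell and 2 did not pass (median log2 fold change -0.14), also near the 33.7% and 31.5% over all genes tested. CEBPA, a transcription factor, rose by 1.25 ± 0.16 (log2, SE, adjusted p = 5.28e-06), and PGF, a growth factor of the VEGF family, rose by 0.81 ± 0.13 (adjusted p = 8.51e-05). TXNRD2, the mitochondrial thioredoxin reductase, fell by 1.39 ± 0.11 (adjusted p = 4.96e-08), at 10.5 ± 1.39 CPM after panobinostat and 27.8 ± 0.646 CPM after vehicle. SELENOH, a nuclear selenoprotein, fell by 0.86 ± 0.08 (adjusted p = 2.70e-07).

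Of 10 genes listed that flank the cluster on chromosome 16, 9 had a row and 8 were tested, of which 3 rose, 4 fell and 1 did not pass (median log2 fold change -0.13). Over all genes tested 33.7% rose and 31.5% fell, and 40.5% fell at 10 to under 100 CPM and 48.1% at 100 CPM or more, where most of these genes lie. GNAO1, a G protein subunit, fell by 0.94 ± 0.12 (log2, SE, adjusted p = 8.84e-06), and NUDT21, a factor of mRNA 3′ end processing, fell by 0.53 ± 0.07 (adjusted p = 1.08e-05). HERPUD1, of the endoplasmic reticulum stress response, rose by 0.41 ± 0.12 (adjusted p = 0.00714), and by 0.24 without vehicle C. NLRC5, a regulator of MHC class I genes, had 2.27 ± 0.0535 CPM after panobinostat and 0.270 ± 0.0315 CPM after vehicle. It rose by 3.04 ± 0.32 (adjusted p = 9.90e-07) and passed the filter only through the panobinostat libraries.

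**Figure D5:**
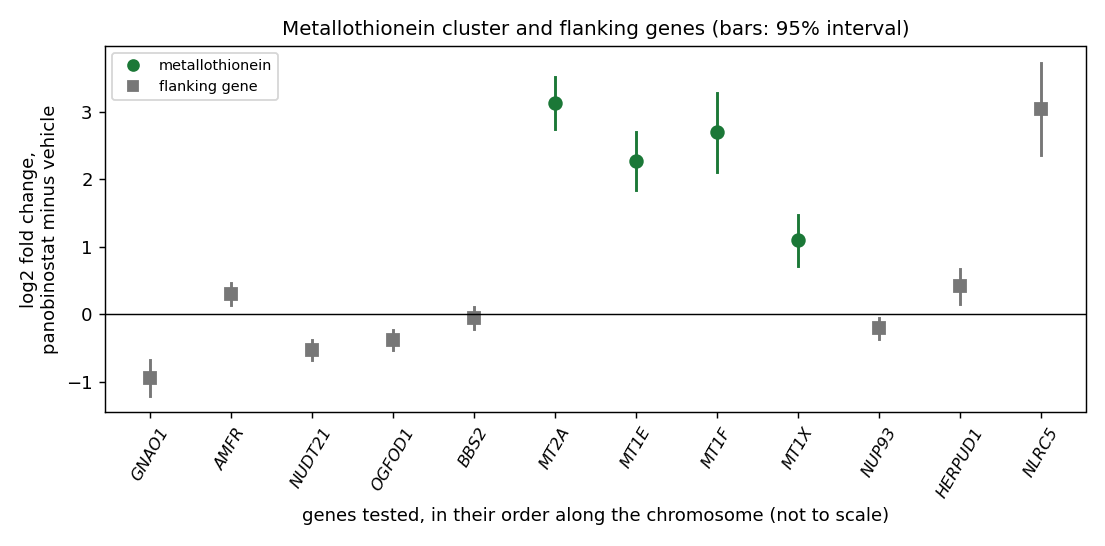
Log2 fold change, panobinostat minus vehicle, of the tested genes in their order along chromosome 16 (green circle, metallothionein; grey square, flanking gene; bar, 95% interval). The 4 metallothioneins lie between 1.09 and 3.13, the nearest flanking genes lie near or below 0, and NLRC5 at the far right is at 3.04.

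The genes with the pattern most like that of MT2A were sought among 9911 genes averaging at least 10 CPM. Likeness was the Euclidean distance over the 6 libraries between log2 CPM values centred on the vehicle mean. The nearest were CYP1A1, a cytochrome P450 of xenobiotic metabolism, at a distance of 0.290, RUNDC3B at 0.317 and LRRC4C, a neuronal adhesion protein, at 0.442. CYP1A1 had 32.1, 28.6 and 28.7 CPM in panobinostat libraries A, B and C, against 4.69, 2.34 and 2.89 CPM in vehicle libraries A, B and C. As for MT2A, library A was the highest of each arm, an order that the choice by distance over these libraries favours. The measure is dominated by the difference between arms, so it describes size and spread alone.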

How the data were processed

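The 6 RNA-seq libraries, 3 per arm, were grouped by their titles. Per the file headers, featureCounts 1.5.0-p3 gave the deposited counts on Ensembl release 84 with strand option 2. The submitters' processing notes name featureCounts 1.5.1, Novoalign 2.8, Subread and hg38. The header lists 9 alignment files, of which 3 were not analysed here. Deposited FPKM values are the authors' own, scaled per gene length and library. No source used here states how genes were chosen for the tables.

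Symbols and coordinates came from GENCODE 29 (GRCh38), which held 22459 of 22718 identifiers. In edgeR 4.0.16 (R 4.3.3), filterByExpr removed scarce genes (a minimum of 10 counts, and 15 in total). TMM then scaled the libraries, and a quasi-likelihood model with the arm as its single term was fitted to all 6. Genes changed where their Benjamini-Hochberg adjusted p did not exceed 0.05. The SE is the size of the log2 fold change divided by the square root of F, and the script was tested on simulated data. Alternatives used DESeq2 1.42.0, limma 3.58.1 on log2 FPKM, other scalings and filters, a replicate block and each library left out.

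Named genes were all members, from each pathway list up to 4 called genes with the largest fold change, the largest rise and fall included, and the 3 genes nearest to MT2A. Members and lists were chosen with earlier results of these data known.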

Additional observations from a re-analysis of the deposited data

How the results depend on the processing

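Of 654 fold changes of named or called genes under alternatives, 622 kept their direction and side of the threshold, 32 no longer passed and 0 reversed. Of 250 counts of called genes, 244 stayed within 1.5 times the reported count. The count of members that rose was 6 under DESeq2, limma and each scaling and filter, 5 at an adjusted p of 0.01, and 5 to 6 with 1 library left out. MT2A rose by 2.98 to 3.42 (log2), MT1E by 2.04 to 2.60, MT1F by 2.55 to 2.94 and MT1X by 0.92 to 1.23 with 1 library left out. Summing the copies into 1 gene gives no member count; edgeR then gave the sum a log2 fold change of 2.13. Without MT2A the log2 difference of the summed level was 1.72, against 2.12 with all copies. It was the 1 of 8 alternatives for the sum that moved by more than 0.369, the larger SD of log2 CPM within an arm. SLC30 genes that rose numbered 4 under limma on log2(FPKM + 1) and on log2(FPKM + 0.1) with the FPKM filter, against 7, because SLC30A3, SLC30A4 and SLC30A10 average under 1 FPKM and were not tested there. SLC39 genes that rose numbered 3 at an adjusted p of 0.01, against 5, and 3 to 4 with 1 library left out. The calls lost were those of SLC39A7 and SLC39A13. Their adjusted p values (edgeR) were 0.0316 and 0.0151 in the main fit. With 1 library left out they ran from 0.0506 to 0.113 and from 0.0143 to 0.0568. SLC39 genes that fell numbered 1 to 2, and the cause of that change was not tested. The median over all genes shifted upward by 0.11 (log2) with library size alone and by 0.14 with upper quartile scaling. SLC30A1 and SLC39A10 rose under both, but with shifts in that direction these rises could hardly have been lost.

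Same-lettered libraries were not shown to be paired: their deviations correlated at 0.098 (A), -0.030 (B) and 0.138 (C). Panobinostat A and panobinostat C correlated best with the vehicle library of their own letter, and panobinostat B did not. With the letter as a block, 5432 genes rose and 5109 fell, 6 members rose, and MT2A rose by 3.13 (adjusted p = 1.51e-09, edgeR). Depth limits MT1M, MT1L and MT1XP1, with 1 to 16 counts per arm.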

Other observations

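Library A was the highest of its arm in both arms for MT2A, MT1E and MT1X, and for the sum of all copies (85.8 CPM in panobinostat A and 21.9 CPM in vehicle A). For MT2A the exact Poisson interval of panobinostat A, 30.2 to 36.3 CPM, did not overlap that of panobinostat C, 22.7 to 27.3 CPM. The interval of vehicle A, 3.56 to 5.90 CPM, did not overlap that of vehicle B, 1.87 to 3.46 CPM. MT1F and the transporters SLC30A1 and SLC39A10 did not have library A on top in both arms.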
